A study of Mus musculus with 220 samples.

Results

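The core circadian clock genes Arntl, Clock, Npas2, Nr1d1, Per1, Per2, Per3, Cry1, Dbp and Tef were chosen by name, and 9 of the 10, with 20 probe sets, could be described in liver among 17097 named genes. Nr1d1 was not analysed here. Hepatic RNA came from 220 female F1 mice, 1 array per mouse. The dams came from 96 inbred and recombinant inbred strains. The sires were C57BL/6J and transmitted the human transgenes APOE-Leiden and CETP, present in all mice used and with insertion sites and copy numbers that the study's methods call unknown. Mice lived on a 12 h light-dark cycle, were fed chow up to 8 weeks of age and then a Western diet during 16 weeks, and were killed at 24 weeks of age. The maternal strains were 34 BXD (83 mice), 29 classical inbred (65), 21 AXB/BXA (47), 8 CXB (17) and 4 BXH strains (8), and the strain was the group. Of these, 9 strains had 1 mouse, 51 had 2, 35 had 3 and 1 had 4. Per the study's methods, food was withheld for 4 h from the start of the light phase before the plasma sampling at euthanasia. The hour at which each liver was frozen is not given in the sources used here. Hepatocyte markers such as Alb were near the top of the array's range in every mouse (Alb from 13.28 to 13.78, log2 RMA value).

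The clock of a liver cell is a feedback loop. ARNTL pairs with CLOCK or its relative NPAS2 and switches on the Per and Cry genes through DNA sites called E-boxes, and PER and CRY proteins then hold ARNTL and CLOCK back. A second arm uses the repressor NR1D1, which acts on Arntl, Clock, Npas2 and Cry1, and DBP and TEF are output factors that bind D-boxes, so that in mouse liver Arntl and Npas2 are known to peak around dawn and Dbp, Tef and the Per genes from afternoon to early night. A single liver sample therefore reads, for each of these genes, both how much is made over the day and where in the day the animal was.

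Promoter sequence is shown for 4 members, picked from those with a match to the motifs searched. RefSeq sequence of mouse build GRCm38.p6 gave 14 start windows for 9 of the 10 genes, all but Per2, and the 250 bases before each start were searched on both strands for the E-box CACGTG, the related CACGTT, the D-box TTATGNAA, the ROR elements TAGGTCA and TGGGTCA, and the CRE TGACGTCA. None of these motifs overlap in the windows printed, where capitals mark a match and each sequence runs 5′ to 3′ on the gene's strand.
Per1, chr11:69098699-69098948, plus strand: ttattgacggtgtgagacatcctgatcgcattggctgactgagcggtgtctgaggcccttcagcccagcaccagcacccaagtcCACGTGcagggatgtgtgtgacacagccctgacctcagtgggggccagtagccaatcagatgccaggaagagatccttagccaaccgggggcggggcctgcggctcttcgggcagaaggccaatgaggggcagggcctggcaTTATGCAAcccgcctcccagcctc
Per3, chr4:151044666-151044915, minus strand: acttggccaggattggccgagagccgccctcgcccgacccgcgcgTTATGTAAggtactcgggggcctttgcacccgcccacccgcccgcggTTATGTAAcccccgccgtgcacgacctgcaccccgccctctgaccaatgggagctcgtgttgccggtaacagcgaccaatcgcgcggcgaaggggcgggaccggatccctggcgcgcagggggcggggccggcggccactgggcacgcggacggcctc
Cry1, chr10:85185055-85185304, minus strand: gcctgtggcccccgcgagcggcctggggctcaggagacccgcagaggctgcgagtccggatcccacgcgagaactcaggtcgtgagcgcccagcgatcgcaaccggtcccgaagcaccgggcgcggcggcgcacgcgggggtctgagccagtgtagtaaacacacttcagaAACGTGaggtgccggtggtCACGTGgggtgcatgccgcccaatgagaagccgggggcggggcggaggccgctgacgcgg
Tef, chr15:81811164-81811413, plus strand: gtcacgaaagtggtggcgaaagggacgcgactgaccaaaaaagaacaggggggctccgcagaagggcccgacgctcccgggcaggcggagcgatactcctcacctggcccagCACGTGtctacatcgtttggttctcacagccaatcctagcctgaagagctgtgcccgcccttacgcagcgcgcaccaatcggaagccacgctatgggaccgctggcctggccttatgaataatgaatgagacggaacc
Per1 held an E-box 166 to 161 bases before its start and a D-box 24 to 17 bases before it, Per3 held D-boxes at 205 to 198 and at 158 to 151, Cry1 an E-box at 60 to 55 and, on the other strand, the CACGTT form at 79 to 74, and Tef an E-box at 138 to 133. Over all 32851 windows of this length, 6.02% held the E-box, 3.85% CACGTT and 3.07% the D-box, against 4, 2 and 2 of the 14 member windows. The 4 windows with the E-box include both windows of Tef. The window of Nr1d1, not printed, held CACGTT. No motif matched in any window of Arntl, Clock, Npas2 or Dbp, or in the second window of Per1. The ROR elements and the CRE were in 0 of the 14. A match is a string of letters and not a measured binding site, and the members below are read for their levels.

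All 9 measured members differed between maternal strains by more than mice of a strain differed from each other (limma moderated F-test, 87 strains with 2 or more mice, 211 mice), beside 59.2% of all genes. Among genes with a bright probe set, a setting in which all 9 members stayed in the test and were called, 89.2% of genes were called. Some other lists were called as fully, with 8 of 8 macrophage, 7 of 7 endothelial, 7 of 7 stellate and 5 of 5 cholangiocyte markers and 12 of 12 feeding genes. The adjusted p ran from 1.57e-14 for Arntl to 4.42e-07 for Clock. Dbp had the widest range: single mice lay between 3.06 and 9.36 on the log2 scale, with a median of 7.18. Per3, a period gene, spanned 3.32 to 8.28 with a median of 5.92, and Arntl, the partner of CLOCK, 3.28 to 7.22 with a median of 5.40. Per1 lay between 4.07 and 7.57 with a median of 5.32 (11.4-fold), and Per2 between 3.65 and 6.81 with a median of 4.88 (8.99-fold). Tef, an output factor, lay between 6.73 and 10.11 with a median of 8.62 (10.4-fold). Npas2, which can take the place of CLOCK, lay between 2.43 and 5.46 with a median of 3.37, and Cry1, a repressor, between 4.01 and 6.06 with a median of 4.69 (4.13-fold). Clock itself was the steadiest, from 6.63 to 7.81 with a median of 7.33 (2.27-fold). The lowest mice for Dbp, Per3, Arntl and Npas2 lay below 3.46, the median of all probe set means, where signal and array background cannot be told apart, so no fold is given for these 4. For Npas2 the median mouse, at 3.37, lay below it too, so the strain ranks, shares and differences of Npas2 rest in large part on values near background.

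Among the 87 strains with 2 or more mice, the extremes were the same few strains for several members. BXD75/RwwJ, with mouse numbers 952 and 954, had the highest strain means of Dbp (9.20 ± 0.23, SD, n = 2), Per2 (6.71 ± 0.14), Per3 (8.20 ± 0.03) and Tef (9.96 ± 0.21), and the second lowest of Arntl (3.61 ± 0.06). BXA11/PgnJ had the lowest Arntl (3.42 ± 0.20, n = 2) and Clock (6.65 ± 0.03) and the second highest Dbp (8.68 ± 0.16), Per2, Per3 and Tef. BUB/BnJ (n = 3) was the third lowest for Arntl, with mice at 3.84, 4.01 and 4.12. At the other end AKR/J had the highest Arntl (7.05 ± 0.17, n = 2) and the lowest Dbp (4.54 ± 0.96), Per1 (4.34 ± 0.07), Per3 (4.12 ± 0.55) and Tef (7.35 ± 0.41). SWR/J (6.99 ± 0.06, n = 2) and CXB8/HiAJ (6.93 ± 0.15, n = 3) followed AKR/J for Arntl, and BXD61/RwwJ (4.55 ± 0.53, n = 2) and RIIIS/J (4.60 ± 0.97, n = 2) followed it for Dbp.

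For Per1, Npas2 and Cry1 other strains led. CXB3/ByJ (7.12 ± 0.64, n = 2) and C57BLKS/J (6.91 ± 0.11, n = 2) were highest for Per1, ahead of BXD75/RwwJ. CXB12/HiAJ led both Npas2 (4.71 ± 1.06, n = 2) and Cry1 (5.44 ± 0.88), with its 2 mice far apart in each, and BXH8/TyJ was lowest for Cry1 (4.18 ± 0.14, n = 2). C57BL/6J mothers, whose strain matches that of the fathers, gave Arntl at 5.40 and 5.41, Dbp at 7.85 and 7.44 and Per1 at 5.02 and 5.44, with 40, 21 and 49 of the 87 strain means above it.

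Between those ends the strains formed a continuous series. In Arntl the widest gap between neighbouring strain means was 0.38, against an SD of 0.54 between mice of a strain, and in Dbp 0.52 against 0.82. The same held for Clock, Npas2, Per1, Per3, Cry1 and Tef, so no neighbours in those orders stood apart by more than the spread within strains. In Per2 the step from BXA11/PgnJ to BXD75/RwwJ, 0.53, was wider than the SD within strains of 0.42.

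**Figure D1:**
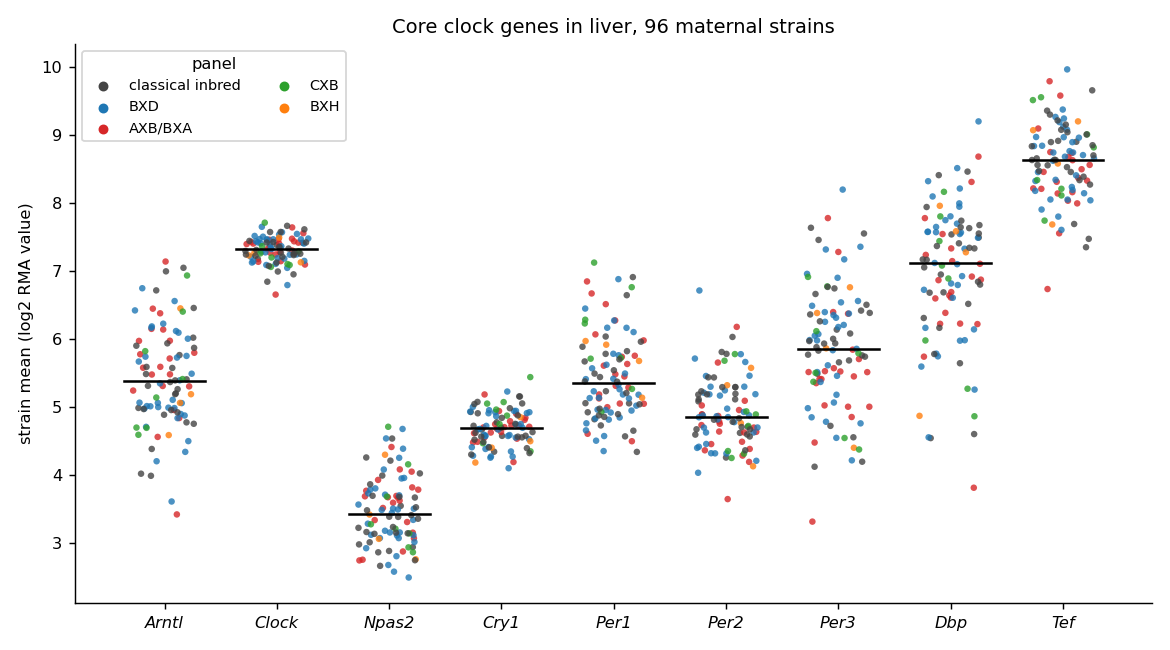
Levels of the 9 measured clock genes by maternal strain (vertical axis, log2 RMA value), 1 point per strain mean coloured by panel, with a black line at the median of the 96 strains. Strains with 1 mouse are included, Dbp, Per3 and Arntl spread widest and Clock least, and the 5 panels overlap in every gene.

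No difference between the 5 panels was detected for any of the 9 members (limma moderated F-test on 96 strain means, 0 called beside 8.72% of all genes, 1 at an unadjusted p under 0.05). That gene was Per1, a light- and hormone-responsive period gene, with CXB strains at 6.00 ± 0.74 (SD, n = 8), BXH at 5.67 ± 0.38 (n = 4), AXB/BXA at 5.58 ± 0.64 (n = 21), classical at 5.34 ± 0.60 (n = 29) and BXD at 5.32 ± 0.60 (n = 34), at an adjusted p = 0.190. For Arntl the panel means lay between 5.32 in BXH and 5.58 in AXB/BXA.

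The share of the variance that lay between strains was 0.593 for Arntl, 0.588 for Tef, 0.587 for Per3, 0.576 for Per1, 0.517 for Per2, 0.501 for Dbp, 0.472 for Npas2, 0.447 for Cry1 and 0.413 for Clock. Mice of a strain were therefore often unlike. Their SD was 0.82 for Dbp, 0.66 for Per3, 0.54 for Arntl, 0.48 for Per1, 0.43 for Npas2, 0.42 for Per2, 0.39 for Tef, 0.23 for Cry1 and 0.18 for Clock.

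Between mice of a strain the members moved as 2 opposed groups. With Arntl as the measure and strain as a factor, Npas2 and Clock, which pair with ARNTL or stand in for each other, and Cry1 went up with Arntl, and Per1, Per2, Per3, Dbp and Tef went down. All 8 tested members were called (limma, two-sided, 211 mice), 3 up beside 3.35% of all genes and 5 down beside 2.68%. For each log2 step of Arntl, Dbp fell by 1.26 (SE 0.07, adjusted p = 2.33e-30), Per3 by 1.04 (SE 0.05, adjusted p = 3.27e-35), Tef by 0.61 (SE 0.03), Per2 by 0.50 (SE 0.05) and Per1 by 0.38 (SE 0.07, adjusted p = 6.52e-05). Npas2 rose by 0.61 (SE 0.05), and Clock and Cry1 each by 0.24 (SE 0.02 and 0.03). Per1 had the loosest tie, with a within-strain correlation of -0.43. It was not called without replicate 1 of every strain (slope -0.21, adjusted p = 0.568) or without replicate 2 (-0.26, adjusted p = 0.311). Per2 was not called without replicate 1 (-0.36, adjusted p = 0.172). These settings also drop the 51 strains with 2 mice. The genes called fell from 1031 to 98 without replicate 1 and to 144 without replicate 2.

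**Figure D2:**
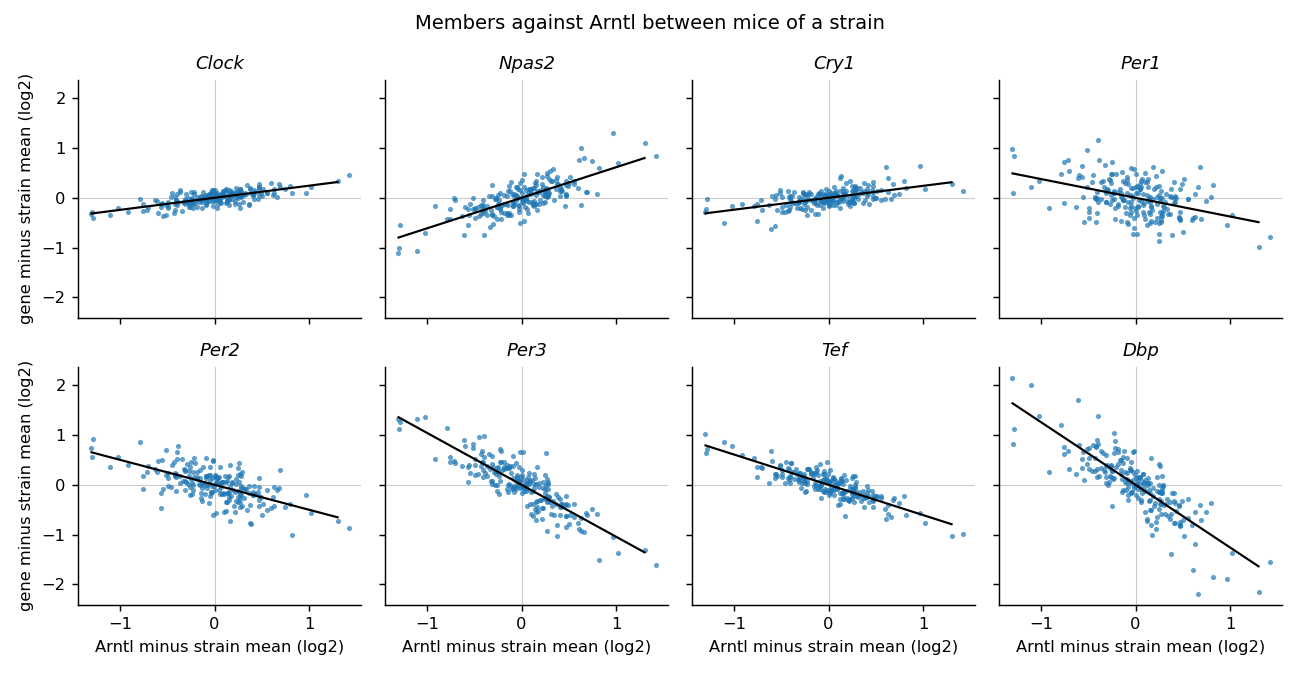
Deviation of each of 8 clock genes from its strain mean (log2, vertical axis) against that of Arntl (log2, horizontal axis), 1 point per mouse over 211 mice of 87 strains, with the fitted slope as a line. Clock, Npas2 and Cry1 slope up, and Per1, Per2, Per3, Tef and Dbp slope down, Dbp most steeply.

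The output factors Dbp and Tef, together with Per3, were the tightest part of the set. As a description over the 211 mice, which share arrays normalized together, the within-strain correlation was 0.93 for Per3 with Tef, 0.92 for Dbp with Tef and for Dbp with Per3, and -0.86 for Arntl with Per3. It was 0.32 for Per1 with Dbp and -0.16 for Per1 with Cry1, and -0.24 for Per2 with Cry1. Across the 96 strain means the slopes on Arntl had the same signs in all 8 members, each called, beside 10.3% of all genes upward and 9.40% downward: -1.25 for Dbp (SE 0.05), -1.11 for Per3 (SE 0.05), -0.67 for Tef (SE 0.03), -0.57 for Per2 (SE 0.04), -0.44 for Per1 (SE 0.07), 0.60 for Npas2 (SE 0.03), 0.20 for Clock (SE 0.02) and 0.19 for Cry1 (SE 0.03). Strain means thus lay along the line on which mice of a strain differed. Each mean averages few mice and so carries part of that covariation. The slopes across means and within strains are therefore not independent.

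Some single strains show the pattern mouse by mouse, and BXD18/TyJ does not. The strains given here were picked as examples with their values known, so they do not measure how often the pattern held. In CXB12/HiAJ the mouse numbered 618 had Arntl at 7.01, Npas2 at 5.46 and Dbp at 3.57, and the mouse numbered 877 had 5.79, 3.96 and 6.97. In BXD31/TyJ the mouse numbered 102 had Arntl at 4.37, Dbp at 8.10, Per3 at 6.88 and Tef at 9.22, and the mouse numbered 659 had 6.42, 5.35, 4.15 and 7.68. BXD20/TyJ is the strain with 4 mice: number 389 had the lowest Dbp of all 220 mice, 3.06, and the highest Arntl, 7.22, while numbers 724, 726 and 727 had Dbp at 6.29, 5.50 and 6.17 and Arntl at 6.33, 6.53 and 6.15. In CXB12/HiAJ, BXD31/TyJ and BXD20/TyJ the mouse with the highest Arntl had the lowest Dbp. The 3 mice of AXB6/PgnJ, numbered 316, 750 and 752, lay closer together in Dbp, at 6.43, 6.22 and 6.51. Their Arntl was 6.33, 6.66 and 6.14, so the highest Arntl again went with the lowest Dbp. In BXD18/TyJ the mice numbered 421, 730 and 732 had Arntl at 5.343, 5.833 and 5.829 and Dbp at 6.87, 7.15 and 5.80. There the mouse with the highest Arntl, number 730, had the highest Dbp, so the order did not hold in every strain.

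The number in the sample title ran from 1 to 1649, and the labels do not say what the number follows. As a description, the root mean square difference was larger between strain mates with far numbers than with near numbers in every member. The test of the gap in number, given below, called no member. Strain mates often had near numbers: in 48 of the 87 strains all numbers lay within 5 of each other. The root mean square difference in Dbp was 0.78 between strain mates with numbers within 5 (103 pairs) and 1.70 between strain mates over 100 numbers apart (34 pairs, from 22 strains). For mice of different strains it was 1.55 within 5 numbers (108 pairs) and 1.68 over 100 apart (20720 pairs). Strain mates with far numbers differed in Dbp about as much as mice of different strains. Of the near strain mates, 21 of 103 pairs differed by over 1 in Dbp, and of the far ones 20 of 34.

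Arntl gave 0.61 and 1.05 for near and far strain mates, against 1.05 and 1.22 for near and far mice of different strains. Per3 gave 0.69 and 1.29 against 1.25 and 1.47, Npas2 0.43 and 0.81 against 0.81 and 0.85, and Tef 0.40 and 0.77 against 0.76 and 0.88. Per2 gave 0.51 and 0.80 against 0.69 and 0.86. The step from near to far strain mates was smaller in Per1, with 0.67 and 0.71 for near and far strain mates and 0.88 and 1.03 for near and far mice of different strains, in Cry1 (0.28 and 0.31 against 0.42 and 0.43) and in Clock (0.24 and 0.27 against 0.32 and 0.34). These values are descriptions, since pairs share mice and the near and far pairs come from different strains. Mice with near numbers but different strains were less alike than near strain mates in all 9 genes.

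**Figure D3:**
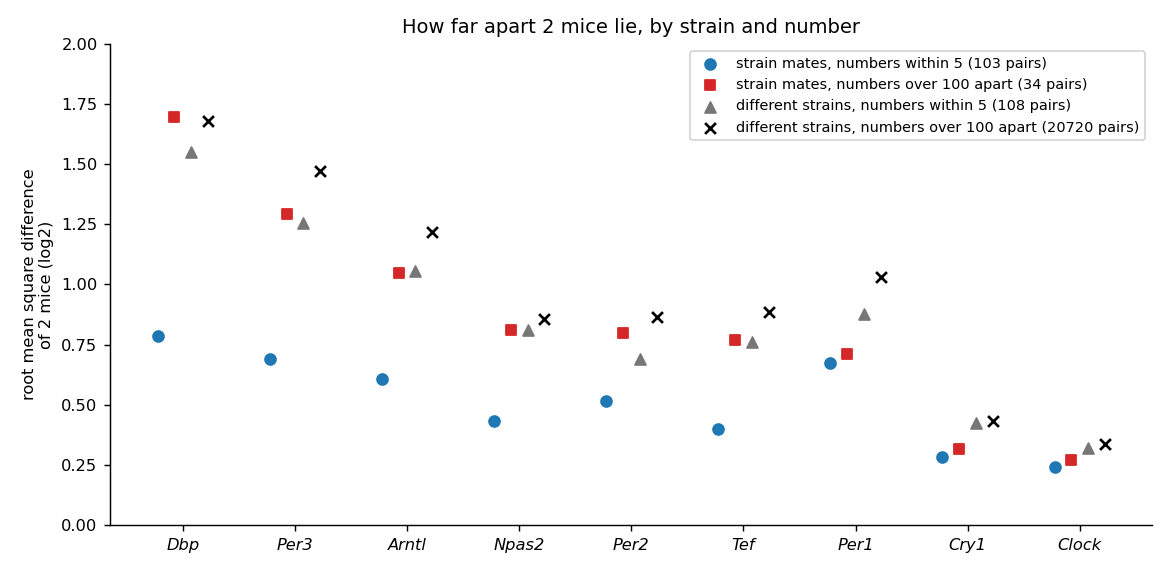
Root mean square difference of 2 mice (log2, vertical axis) for each clock gene, for strain mates with numbers within 5 (circles) or over 100 apart (squares) and for mice of different strains within 5 (triangles) or over 100 apart (crosses). For Dbp the values are 0.78, 1.70, 1.55 and 1.68, and for Per1 0.67, 0.71, 0.88 and 1.03.

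The test of this gap over the 51 strains with exactly 2 mice called 0 of the 9 members (limma, two-sided slope of the log2 difference on the log2 gap, 0.00585% of all genes called). At an unadjusted p under 0.05 there were 5 (Per3, Tef, Arntl, Dbp and Per2), against 928 of 17097 genes. Per3 had a slope of 0.11 (SE 0.04, adjusted p = 0.890, limma), Tef and Arntl had slopes of 0.09 (SE 0.03 each), and Dbp of 0.10 (SE 0.04). When only strain mates over 100 numbers apart were compared, an alternative chosen after seeing the data (44 mice, 22 strains), 1 of the 9 members still differed between strains, Per1 (adjusted p = 0.0319, limma), beside 18.1% of all genes. Arntl had an adjusted p of 0.159, Dbp 0.279 and Clock 0.488. With strain mates within 5 numbers (134 mice, 67 strains) all 9 did, beside 53.6% of all genes. Strains held a variance share of 0.69 for Dbp, 0.73 for Arntl and 0.74 for Tef in the near set and 0.15, 0.24 and 0.20 in the far set. The near and far shares were 0.64 and 0.42 for Per1, 0.62 and 0.38 for Cry1, 0.63 and 0.31 for Npas2, 0.64 and 0.18 for Per2, 0.72 and 0.13 for Per3, and 0.49 and 0.0915 for Clock, the lowest far share of the 9. The far set has fewer strains, so its test has less power. What strain mates with near numbers shared (litter, cage, day or hour) is not in the labels, and for 48 strains it cannot be told apart from the strain.

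Along the number itself the levels rose and fell without a steady drift. No member had a linear trend over the 220 mice (limma, 0 of 9 called and 0 at an unadjusted p under 0.05, beside 1.99% of all genes with a rise and 0.795% with a fall), although 6 of 7 endothelial markers rose (Lyve1, Oit3, Pecam1, Kdr, Tek and Stab2) and, of 9 temperature-responsive genes, 4 fell (Hsph1, Hsp90aa1, Dnaja1 and Dnajb1) and 1 rose (Cirbp) along it. The trend fit treats strain mates as independent, and on 1 mean per strain the genes called fell from 477 to 21. Within strains no member had a trend either, beside 0.00% of all genes in each direction and 0 members at an unadjusted p under 0.05. That test had little power, since on simulated data it recovered 0.5% of the genes changed by 0.5 SD per SD of number (4000 genes simulated). A curve (natural spline with 5 degrees of freedom) was called for 8 of the 9, all but Cry1 (adjusted p = 0.608), beside 33.4% of all genes and 52.5% of genes with a bright probe set. Of other lists, 12 of 16 clock output genes, 8 of 10 immediate early genes, 7 of 7 endothelial, 5 of 7 stellate and 4 of 5 cholangiocyte markers were called. Feeding genes gave 8 of 12, temperature-responsive genes 6 of 9, macrophage markers 5 of 8, other clock components 9 of 16 and hepatocyte markers 4 of 7. Calls were fewer in glucocorticoid-responsive (2 of 8), T and B cell (2 of 7) and acinar genes (1 of 5). Adipocyte (0 of 3), muscle (0 of 5) and erythroid markers (0 of 3) had none. The curve fit too treats strain mates as independent, and on 1 mean per strain, an alternative added after seeing the data, 3 members remained called, Per2 (adjusted p = 0.0218), Tef (0.0398) and Per3 (0.0475), beside 11.0% of all genes.

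In windows of 100 numbers, Dbp averaged 7.80 ± 0.76 (SD, n = 16 mice) in numbers 1 to 100 and 6.02 ± 1.47 (n = 8) in 201 to 300. It was 6.23 ± 1.03 (n = 19) in 701 to 800, 7.71 ± 0.81 (n = 28) in 901 to 1000, 8.01 ± 0.67 (n = 5) in 1401 to 1500 and 5.95 ± 1.31 (n = 9) in 1601 to 1700. Arntl ran opposite, at 4.67 ± 0.81, 5.91 ± 0.87, 6.09 ± 0.76, 4.95 ± 0.65, 4.37 ± 0.90 and 6.12 ± 0.68 in the same windows. Per1 had its own peak: it was 6.26 ± 0.65 in 901 to 1000 (28 mice of 16 strains), against 5.24 ± 0.67 in 701 to 800. The windows hold different strains, so number and strain are mixed in these means.

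**Figure D4:**
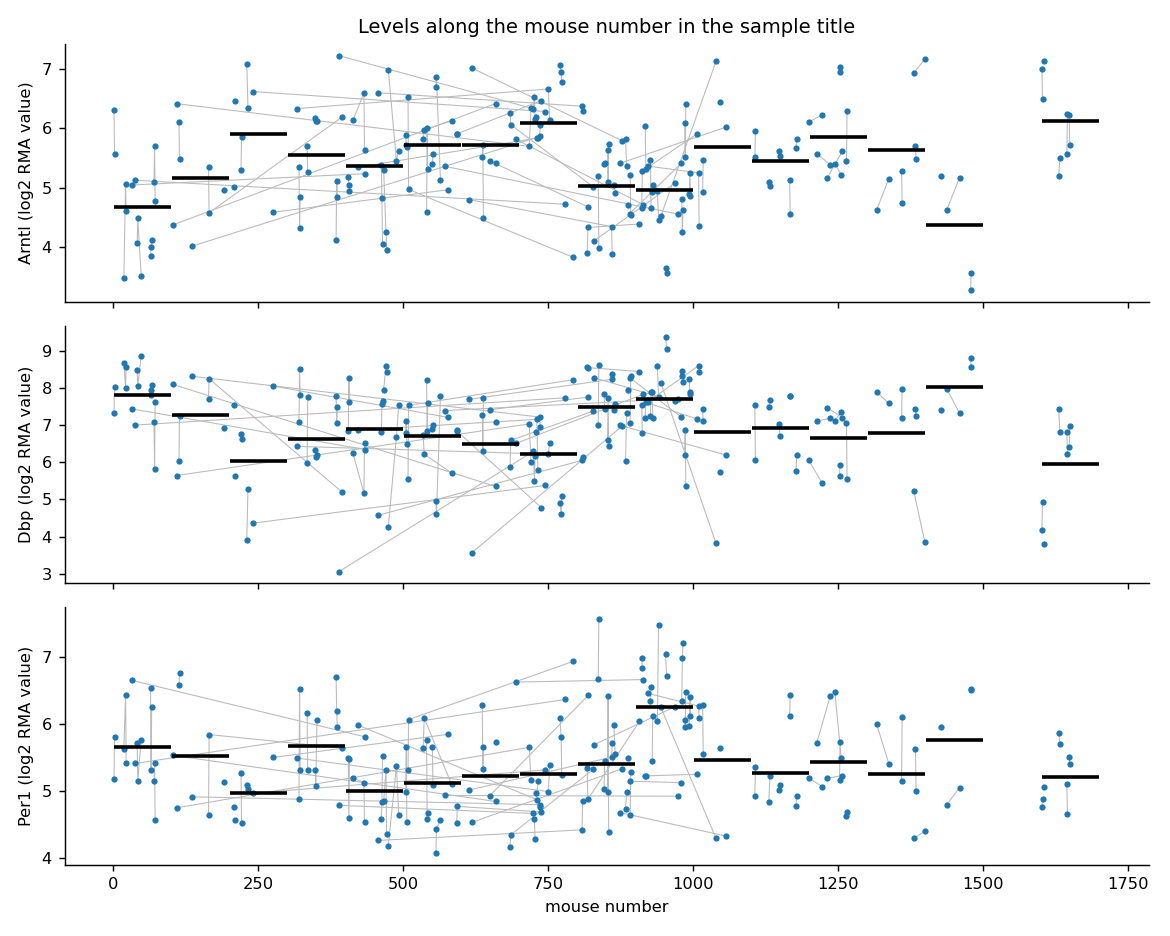
Levels of Arntl, Dbp and Per1 (log2 RMA value, vertical axes) against the mouse number in the sample title (horizontal axis), 1 point per mouse, with grey lines joining strain mates and black bars at the means of windows of 100 numbers. Arntl and Dbp mirror each other from window to window, and Per1 is highest in numbers 901 to 1000, at 6.26.

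Part of the strain difference of some members did not follow this common line. With the levels of Arntl, Dbp and Per2 as covariates, a setting called here matched clock state, all 6 remaining members still differed between strains (limma, beside 59.2% of all genes), although Clock (adjusted p = 0.00645) and Npas2 (adjusted p = 0.0149) lost the call in several alternatives. Among genes with a bright probe set, where all 6 members were also called, 89.1% of genes were called. The count therefore does not set the members apart from such genes. Per1 (adjusted p = 2.24e-11), Tef (1.18e-10), Cry1 (5.14e-09) and Per3 (1.18e-05) were furthest past the threshold. The count was 2 without replicate 2 of every strain, which drops the 51 strains with 2 mice, beside 30.5% of all genes. There Per1 and Per3 were called and Tef (adjusted p = 0.0576) and Cry1 (0.0567) were not. With strain mates over 100 numbers apart the count was 1, beside 15.6% of all genes. There Cry1 was called (adjusted p = 0.0336) and Per1 was at 0.0685.

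At matched clock state the spread of Tef between mice of a strain was 0.13 in place of 0.39, and the share between strains was 0.553. Near and far strain mates differed by 0.18 and 0.22 in Tef (root mean square, log2), against 0.27 and 0.30 for near and far mice of different strains. Cry1 gave 0.24 and 0.25 against 0.34 and 0.34, with a share of 0.492, and Per1 0.62 and 0.56 against 0.73 and 0.88, with a share of 0.544. In the level itself near and far strain mates differed in Tef by 0.40 and 0.77. A smaller spread within strains at matched state is built in, since the subtracted slopes were fitted within strains to these same mice. The share was 0.410 for Per3, 0.269 for Clock and 0.220 for Npas2. For Per3 it was 0.564 in strain mates within 5 numbers and 0 in those over 100 apart, against 0.617 and 0.400 for Tef, 0.610 and 0.479 for Cry1 and 0.598 and 0.438 for Per1.

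**Figure D5:**
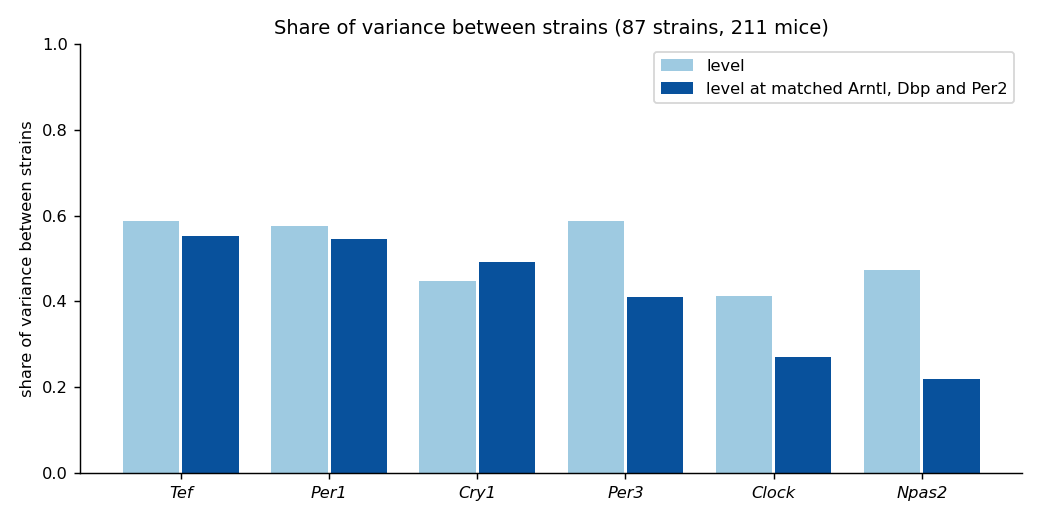
Share of variance between strains (vertical axis, from 0 to 1) of 6 clock genes, as measured (light bars) and at matched levels of Arntl, Dbp and Per2 (dark bars), over 211 mice of 87 strains. Tef goes from 0.588 to 0.553, and Npas2 from 0.472 to 0.220.

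The strains at the ends changed with the adjustment. CXB8/HiAJ, whose Tef averaged 8.11, had one of the 2 highest matched values, 9.08 ± 0.13 (SD, n = 3), beside LP/J (9.08 ± 0.18, n = 2), and BXA7/PgnJ the lowest (8.35 ± 0.08, n = 3). For Per1 the matched mean was highest in BXA2/PgnJ (6.86 ± 0.04, n = 2) and lowest in BXD5/TyJ (4.44 ± 0.58, n = 3). For Cry1 it was highest in BXD1/TyJ (5.17 ± 0.34, n = 3) and BXA11/PgnJ (5.17 ± 0.07, n = 2) and lowest in BXH8/TyJ (4.29 ± 0.18, n = 2), which was also lowest as measured.

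The 20 probe sets did not serve equally. Of the 20, 18 were called for strain differences, and the dimmer probe set of Npas2 and the dimmest of Per3 were not (adjusted p = 0.119 and 0.126, limma). All probe sets of the members other than Arntl were called against Arntl within strains, in the direction of their gene. The Per3 slopes ran from -0.07 in its dimmest to -1.04 in its brightest probe set. The 2 brightest probe sets of Per3 followed each other over the mice (r = 0.88), yet their difference varied between strains, with a share of 0.551. That difference ranged from -0.14 to 1.37 over the BXD strain means and from -0.08 to 1.51 over the classical strain means. Near and far strain mates differed by 0.46 and 0.54 in it, against 0.72 and 0.70 for near and far mice of different strains, and its cause was not tested. For Clock, 4 probe sets had shares from 0.201 to 0.420, all called, and all 4 went up with Arntl within strains.

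Of the genes outside the set, those most like Arntl between mice of a strain were Pnrc1, a nuclear receptor coactivator (63.7% of its within-strain variance shared with Arntl), Ypel2 (62.2%), Asap2 (60.2%), Lgalsl (58.1%), Chka, a choline kinase (56.6%), Ddc, the aromatic amino acid decarboxylase (55.2%), Lrfn3 (52.6%) and Rnf144a (51.0%). The most opposite were Usp2, a ubiquitin protease of the clock (59.6%), Dclre1a (56.0%), A930033H14Rik (54.7%), Wee1, a kinase that restrains mitosis (52.5%), Mcm10 (51.9%), Pcsk4 (49.7%), Coq10b (48.0%) and Upp2, a uridine phosphorylase (46.7%). For each log2 step of Arntl, Usp2 fell by 1.10 (SE 0.08) and Chka rose by 0.54 (SE 0.04). These are descriptions over 211 mice of 87 strains.

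Other clock components gave 7 of 16 genes called against Arntl within strains, 1 up and 6 down: the D-box repressor Nfil3 rose by 0.45 per log2 step (SE 0.04), and Usp2, Nr1d2, the relative of Nr1d1 (by 0.23, SE 0.02), and Hlf, the relative of Dbp and Tef (by 0.30, SE 0.04), fell. Clock output genes gave 13 of 16, 3 up and 10 down. Wee1 fell by 0.40 (SE 0.03), Upp2 by 0.61 (SE 0.06) and Alas1, the first enzyme of haem synthesis, by 0.43 (SE 0.05), and Insig2, an anchor of sterol sensing, rose by 0.23 (SE 0.03). The median slope was -0.19 in the output list and -0.03 among other clock components, beside -0.0015 over all genes.

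Genes that follow feeding gave 5 of 12, with Pdk4 (0.44, SE 0.07), Igfbp1 (0.27, SE 0.06), G6pc (0.28, SE 0.07) and Fgf21 up and Cpt1a down (by 0.12, SE 0.03). Immediate early genes gave 1 of 10 (Egr1, up by 0.22), glucocorticoid-responsive genes 1 of 8 (Fkbp5, down by 0.21) and temperature-responsive genes 0 of 9. At an unadjusted p under 0.05 there were 6, 4 and 1 in these 3 lists, against 3576 of 17096 genes. Among markers of other cells, 1 of 5 cholangiocyte genes was called (Sox9, up by 0.23) and 0 of the 8 macrophage, 7 endothelial, 7 stellate, 7 T and B cell, 5 acinar, 3 adipocyte, 5 muscle, 3 erythroid and 7 hepatocyte genes, with respectively 2, 0, 3, 2, 1, 0, 0, 0 and 1 of them at an unadjusted p under 0.05. Across strain means more of all genes were called, 10.3% up with Arntl and 9.40% down. Immediate early genes gave 5 of 10, all up (Fos, Jun and Egr1 by 0.22 each, Ier3 by 0.25 and Btg2 by 0.17). Cholangiocyte markers gave 3 of 5, all up (Epcam by 0.42, SE 0.14, Cldn7 by 0.36, SE 0.11, and Sox9 by 0.25, SE 0.08). Macrophage markers gave 2 of 8, both up (Cd14 by 0.35, SE 0.11, and Adgre1 by 0.16, SE 0.05). Temperature-responsive genes gave 3 of 9, all up (Hspa1b by 0.21, Hsp90aa1 by 0.17 and Hspb1 by 0.16). Feeding genes gave 4 of 12, all up, and glucocorticoid-responsive genes 2 of 8, 1 up and 1 down. Of acinar markers 1 of 5 rose (Cela1 by 0.08), of hepatocyte markers 1 of 7 (Fgb by 0.02), and 0 endothelial, stellate and T and B cell markers were called. Their part in the strain differences of the clock genes was not tested, and in whole liver a change in the number of cells of a type and in RNA per cell cannot be told apart.

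Per1 had companions of its own. At matched clock state the genes most like it within strains were Ip6k2, an inositol phosphate kinase (46.9% of variance shared), Errfi1, a feedback inhibitor of the EGF receptor (45.9%), Tob2 (37.7%), Tsc22d3, a glucocorticoid-induced leucine zipper protein (37.3%), and Ccn2 (32.5%), and the most opposite were Id2 (31.6%) and Efna1 (27.0%). For Tef they were Mast3 (33.7%), Adcy9 (29.8%) and, opposite, Cd36 (28.8%), a fatty acid transporter. For Cry1 no gene reached as much, with Tmcc1 at 18.5%. These genes were chosen after their values were seen.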

How the data were processed

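Each of 220 liver RNA samples was run on 1 Affymetrix HT MG-430 PM array. The values are log2 signals that the authors deposited after RMA (robust multi-array average), a background correction, quantile normalization and probe summary in which a shift shared by most genes is lost. GCOS and RMA are named in the processing notes of the submitters, with versions and batch handling not given in the sources. Array medians lay between 3.43 and 3.57, and arrays have no depth: their number limits the precision.

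From 45141 probe sets, 104 array controls were left out. The platform annotation gave 1 symbol to 28898 probe sets, several to 551, which were not named, and none to 15588. Another probe set, which lists Per2 beside a different symbol, is among the 551. The probe set with the highest mean stood for its gene. Tests used limma 3.58.1 in R 4.3.3 over all 45037 probe sets, two-sided for slopes, with Benjamini-Hochberg adjustment and a threshold of 0.05. Shares between strains are one-way random-effects estimates. Matched values subtract within-strain slopes on Arntl, Dbp and Per2. Replicate numbers were given in accession order and pair nothing, and nothing says whether mice of a strain came from separate litters or cages, so p-values measure the spread between these mice. Tests were checked on simulated data: strain differences as large as the spread within strains were recovered in 100% of 200 genes changed among 4000, and slopes of 0.5 SD per SD of Arntl in 64%.

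The members and the lists were chosen with earlier results of these data known. Every member and probe set was named. From other lists up to 4 genes with the smallest p were named, together with the 8 genes most like and most unlike Arntl. Strains ranked by level were named from the 3 highest and 3 lowest means of a member among those with 2 or more mice. At matched clock state they were named from the highest and lowest matched means. The strain of the fathers was named for its role in the cross. The strains shown mouse by mouse were picked as examples with their values known, and not all of them are among these ranks. Lists with 5 or fewer calls against Arntl, and the calls of the number trend given, are named whole. Feeding and glucocorticoid-responsive genes called across strain means are an exception, given by count only. Alternatives changed the filter, scaling, prior, probe set choice, replicates, strains and covariates, and the closing section gives their effect. Some genes are not reported here.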

Additional observations from a re-analysis of the deposited data

Results flagged for a closer look

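In BXD20/TyJ, the only strain with 4 mice, the Npas2 level of replicate 1 (mouse number 389) was 5.18, against 4.08 to 4.19 in the other mice. Its gap to the nearest mouse was 90.3% of the range of the strain, above Dixon's 95% critical value for 4 samples. The other 8 members were not past that value in this strain, although the same mouse also had the highest Arntl and the lowest Dbp and Tef of the 4. Chance flags about 1 in 20 groups, and 9 were tested. All 8 members kept their call against Arntl within strains without this mouse, an alternative chosen after seeing the data, and the cause of its level was not tested.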

How the results depend on the processing

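Across 63 alternatives and 8 added after seeing the data, the number of members called stayed within 1.5 times the reported count in 67 of 71 cases. Strain differences in strain mates over 100 numbers apart were called for 1 member in place of 9, and at matched clock state for 1 in place of 6. These fits hold 22 strains in place of 87, and whether power or the numbers lowered the count was not tested. The curve along the number was called for 3 members in place of 8 on 1 mean per strain, where 96 values replace 220. Leaving out a replicate of every strain left 2 to 5 of 6 members at matched clock state, 6 to 8 of 8 against Arntl within strains and 9 of 9 between strains. Without replicate 1 or 2, the 51 strains with 2 mice drop out of these fits. Of 433 values of single members under an alternative, 399 kept their side of the threshold, 34 lost the call and 0 changed direction. Only the slopes could change direction, since the F-tests among these results have no sign. In the curve, Clock lost its call with array medians set to 0 (adjusted p = 0.05001, limma) and with the mean of its probe sets (0.116). No paired analysis was possible because replicate numbers were given in accession order and pair no mice. Signal over background limits the dim probe sets, such as that of Npas2, whose mean of 3.47 lay at the middle of all probe sets.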
